A study of Mus musculus with 18 samples.

Results

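Cell cycle and DNA replication genes are described here in naive and memory CD8 T cells cultured with IL-7, IL-4, both cytokines or neither. The genes are a fixed list of 41, chosen by symbol: G1 cyclins, their kinases and inhibitors, licensing and fork proteins, enzymes of nucleotide synthesis, kinases and cyclins of G2 and mitosis, and structural proteins of mitosis. Of the 41, 40 had a probe set that names only that gene (Ccnb1 had none), among 18194 genes with such a probe set. Of these, 36 lay above the low-value filter, a log2 value of 4.06 reached on 2 or more arrays, among 13770 genes tested. Tyms, Aurkb, Bub1 and Kif20a lay under it and were not tested. Where a gene had several probe sets, the one with the highest mean stood for it.

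RNA was measured on 18 Affymetrix mouse arrays in 8 groups. All cells were C57Bl/6 CD8 T cells sorted by flow cytometry from the spleen of F5 mice, which carry a transgenic T cell receptor, so naive and memory cells share that receptor. Memory cells, which the labels name TIM, were taken at day 45 from F5 mice given NP68 peptide. The ex vivo groups held 2 naive and 4 memory arrays. The 6 cultured groups held 2 arrays each, after 20 hours: naive cells with IL-7 at 10 ng/mL, naive cells with IL-7 and IL-4 at 20 ng/mL, and memory cells given either cytokine, both of them, or neither (medium alone), at the same doses. There was no naive group in medium alone or with IL-4 alone. Only the ex vivo arrays are called biological replicates in the labels, and the cultured samples were taken from the sorted populations, so a p-value here reflects array-to-array spread, part of which may be technical.

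A T cell that leaves quiescence first makes D-type cyclins, which pair with Cdk4 and Cdk6 and inactivate the retinoblastoma protein, while the inhibitors p21 (Cdkn1a) and p27 (Cdkn1b) hold the kinases back. E2F factors then drive the genes that load the MCM helicase on origins and supply nucleotides, and a later wave of G2 and mitosis genes is controlled through CHR and CCAAT promoter elements. IL-7 is known to keep resting T cells alive, and IL-4 signals through a receptor that shares the common gamma chain with it.

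Promoters are shown for 4 genes whose values carry the results below. Mcm2 and Mcm5 are the helicase subunits that passed a test with IL-4. Mki67 and Ube2c are mitotic genes with their highest value on ex vivo memory array 1. The sequences are RefSeq promoters of build GRCm38.p6, 5′ to 3′ on the gene's strand, ending at the base before the transcription start. Capitals mark matches on either strand to an E2F core (TTCCCGC, its form TTGGCGC, the form TTCGCGC and lastly TTGCCGC), the CHR element TTTGAA or a CCAAT box.
Mcm5, chr8:75109329-75109508, plus strand: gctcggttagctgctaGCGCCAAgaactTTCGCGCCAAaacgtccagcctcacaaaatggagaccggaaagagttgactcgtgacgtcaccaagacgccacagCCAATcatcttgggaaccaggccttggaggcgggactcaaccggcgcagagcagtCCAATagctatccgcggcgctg
Mcm2, chr6:88898781-88898900, minus strand: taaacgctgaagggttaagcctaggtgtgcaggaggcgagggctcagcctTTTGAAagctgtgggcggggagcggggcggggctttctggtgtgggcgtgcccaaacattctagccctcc
Mki67, chr7:135716380-135716499, minus strand: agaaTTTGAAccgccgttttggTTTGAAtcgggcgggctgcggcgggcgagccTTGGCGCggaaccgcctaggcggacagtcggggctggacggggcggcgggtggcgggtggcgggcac
Ube2c, chr2:164769809-164769928, plus strand: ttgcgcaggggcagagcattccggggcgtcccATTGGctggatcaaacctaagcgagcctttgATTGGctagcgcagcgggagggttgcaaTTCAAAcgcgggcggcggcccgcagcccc

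The Mcm5 stretch held 3 E2F cores, of which 2 overlap in the run TTCGCGCCAA, and 2 CCAAT boxes. The Mcm2 stretch held 1 CHR element and no E2F core. The Mki67 stretch held 2 CHR elements and 1 E2F core, and the Ube2c stretch 1 CHR element and 2 CCAAT boxes. Over windows of 250 bases before and 50 after the start, 32 of the 41 genes had an entry, with 35 promoters. An E2F core was found in 7 of 9 promoters of licensing and fork genes and in 0 of 8 promoters of G1 genes, against 9.57% of all 32851 promoters. A CHR element was found in 7 of 10 promoters of the G2 and mitosis genes and in 4 of 4 of the mitotic structure genes, against 17.9% of all promoters. A CCAAT box was found in 9 of 10 and 4 of 4 of these, against 37.4% of all. These are letter matches in the windows and not measured sites.

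1 array did not resemble its group. Over the 13770 genes, memory in medium, array 2, differed from ex vivo memory array 2 with a standard deviation of 0.24 (log2) and from the other medium array with 0.74. Of 17 members called in memory culture against ex vivo, it lay nearer the ex vivo mean than the IL-7 mean for 13, and medium array 1 did so for 1. It is named below as the array labelled medium 2, and calls in comparisons with medium are given with and without it. All comparisons share an estimate of the spread, to which this array adds. Some members that did not pass in other comparisons with all arrays passed there without it. Cenpa, Ccne1, Ccnb2, Mcm4 and Ccnd2 were among them. The 7 measured CD8 T cell markers of a list of 9, Cd8a and Cd3e among them, averaged 11.37 to 11.98 over the arrays. Of other cell types' markers, Alas2, the heme synthesis enzyme of red cell precursors, was 4.15 to 6.15 on naive arrays and 6.84 to 11.50 on memory arrays. Jchain, of a plasmablast list, was above 7 on 6 memory arrays. On memory IL-7 arrays 1 and 2 it was 4.69 and 7.94. The rest of its list was 5.07 and 5.19 there for Sdc1, 5.24 and 5.24 for Mzb1, and 5.06 and 5.57 for Prdm1. Irf4 was 5.55 and 5.22, and Xbp1 9.98 and 10.45.

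**Figure D1:**
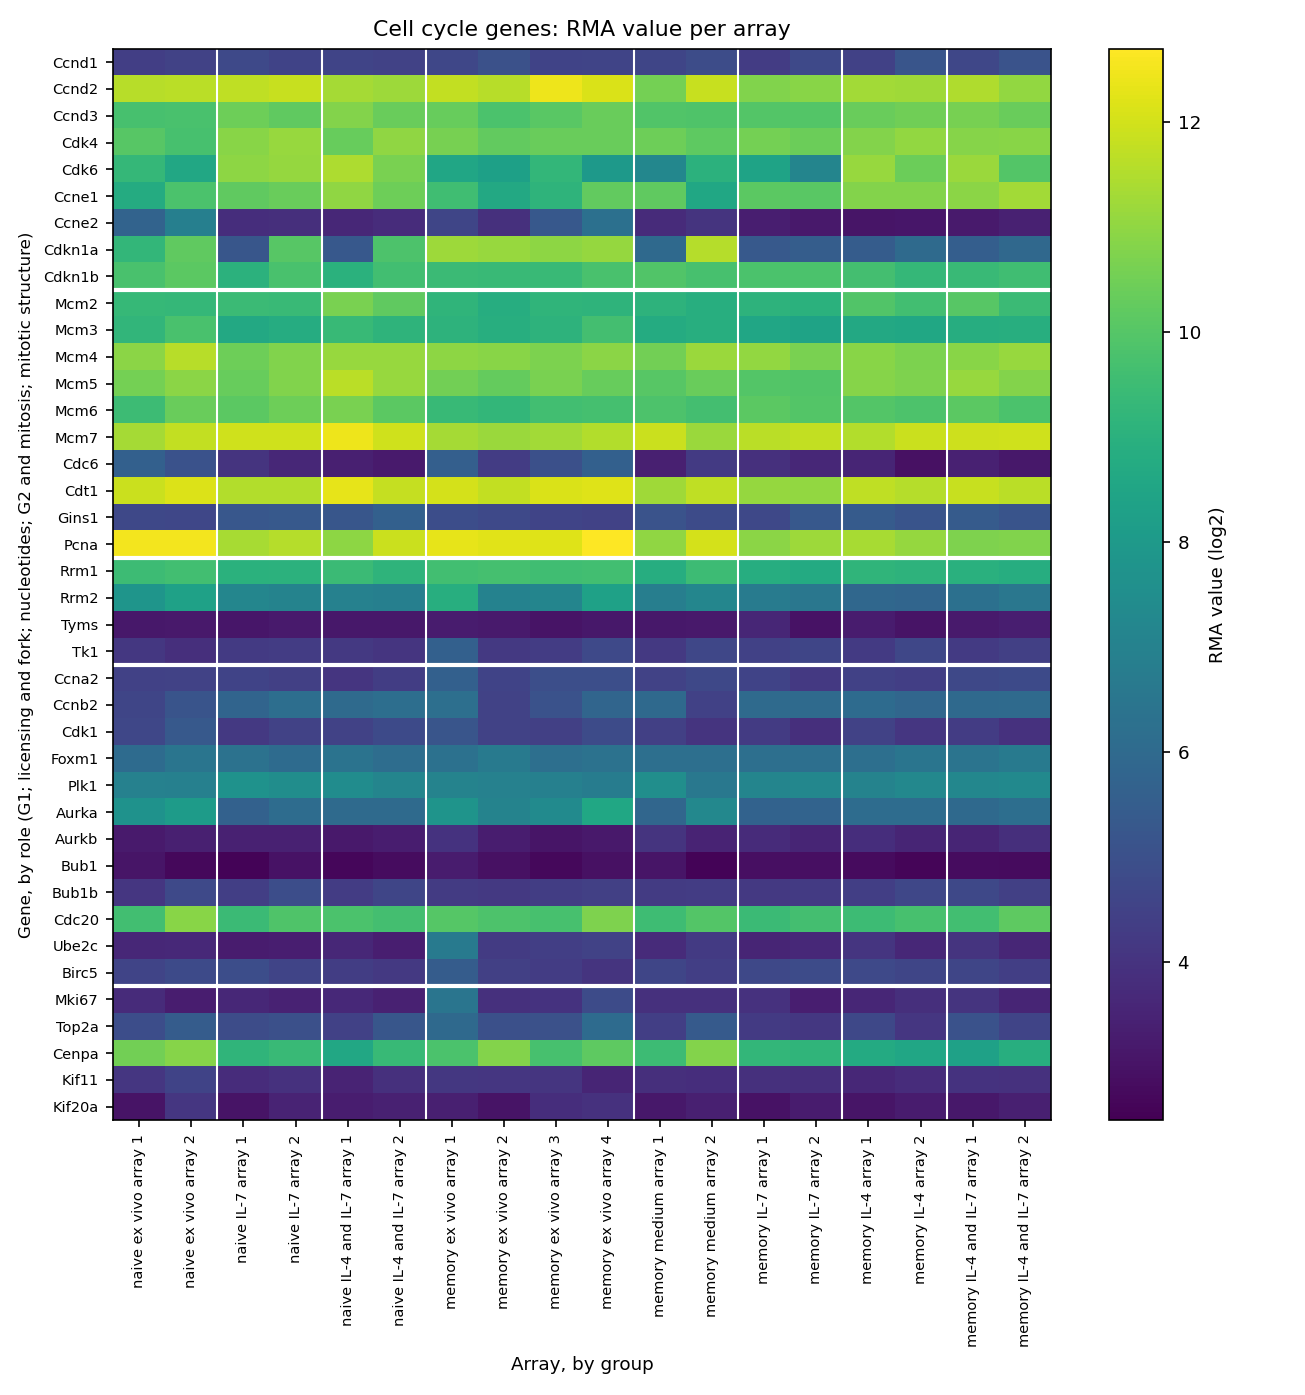
RMA values (log2, colour) of the 40 genes with a probe set (rows, by role) on the 18 arrays (columns, by group). Rows can be read along a row, not against each other, since probe sets differ in brightness. The Cdkn1a row drops on the cultured memory arrays except the array labelled medium 2, and Mki67 is above 4.06 on 2 ex vivo memory arrays.

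Among the G1 regulators, Cdk6 was the only member called for IL-4 in memory cells. Cdk6 encodes a kinase partner of the D-type cyclins. In memory cells its value was 8.42 and 7.13 with IL-7, and 11.18 and 9.99 with IL-7 and IL-4. It was 7.23 and 9.05 in medium, and 11.13 and 10.39 with IL-4 alone. The arrays with IL-4 lay above those without it in both settings, with no overlap. The difference was 2.81 ± 0.60 (log2, SE; 7.01-fold) with IL-7, with a limma adjusted p of 0.0281, and 2.62 ± 0.60 (6.16-fold) without IL-7, with an adjusted p of 0.0377. That call was lost without memory IL-4 array 1 or 2 or medium array 1, at 1.71 to 3.53 over the arrays left out. Without the array labelled medium 2 it was 3.53 ± 0.61 with a limma adjusted p of 0.00726. A second Cdk6 probe set gave 3.83 and 3.36, with limma adjusted p of 0.00109 and 0.00293 over probe sets.

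Naive cells held Cdk6 at that level with IL-7 alone. The naive values were 9.28 and 8.63 ex vivo, 10.96 and 11.08 with IL-7, and 11.44 and 10.63 with both cytokines. IL-4 changed the naive level by 0.02 ± 0.60, with a limma adjusted p of 0.997. Culture in IL-7 raised it by 2.06 ± 0.60 over ex vivo (limma adjusted p of 0.0384), at 1.74 to 2.39 over the arrays left out. In IL-7, memory cells were 3.24 ± 0.60 lower than naive cells (9.46-fold, limma adjusted p of 0.00869), a call lost without either naive IL-7 array or memory IL-7 array 2, at -3.89 to -2.60. The IL-4 response was larger in memory than in naive cells by 2.79 ± 0.85, which did not pass (p of 0.0054, limma adjusted p of 0.333). The naive and memory cultures with IL-4 and naive IL-7 overlapped, and ex vivo, medium and memory IL-7 arrays overlapped below them. The Cdk6 difference with IL-7 lost its call without memory IL-4 and IL-7 array 1 or 2 or memory IL-7 array 2, at 2.16 to 3.46 over the arrays left out.

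Cdkn1a, which encodes the p21 inhibitor, had the largest difference of the members between ex vivo and cultured memory cells. It was 10.96 to 11.20 on the 4 ex vivo memory arrays and 9.27 and 10.21 on the naive ones, with no overlap, a difference of 1.35 ± 1.43 that did not pass (limma adjusted p of 0.637). Memory cells had 5.36 and 5.50 with IL-7, 5.48 and 6.04 with IL-4, 5.54 and 5.96 with both, and 5.97 and 11.55 in medium, where the high value is the array labelled medium 2. The memory cytokine cultures thus lay far below every ex vivo array. Against ex vivo, Cdkn1a fell by 5.67 ± 1.43 in IL-7 (50.9-fold, limma adjusted p of 0.0157). It fell by 5.33 ± 1.43 in IL-4 (adjusted p of 0.0173) and by 5.34 ± 1.43 in both (adjusted p of 0.0156).

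In naive cells the 2 arrays of each culture disagreed on Cdkn1a. With IL-7 the values were 5.24 on array 1 and 10.04 on array 2, and with both cytokines 5.29 and 9.84. On array 1 they lay with the cultured memory cells and on array 2 with the ex vivo cells. The naive difference from ex vivo was -2.10 ± 1.65 in IL-7, which did not pass, and the memory less naive difference of these responses was -3.57 ± 2.18 (limma adjusted p of 0.578). Of 17 other p53 targets tested from a list of 19, 4 were higher and 6 lower in memory cells in IL-7 against ex vivo (58.8%, against 19.9% of all genes), with a median of -0.07 against -0.05 over all genes. Plk2 and Plk3, stress-induced polo-like kinases, were lower by 2.67 ± 0.33 and 2.95 ± 0.49 (limma adjusted p of 0.00392 and 0.00435).

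**Figure D2:**
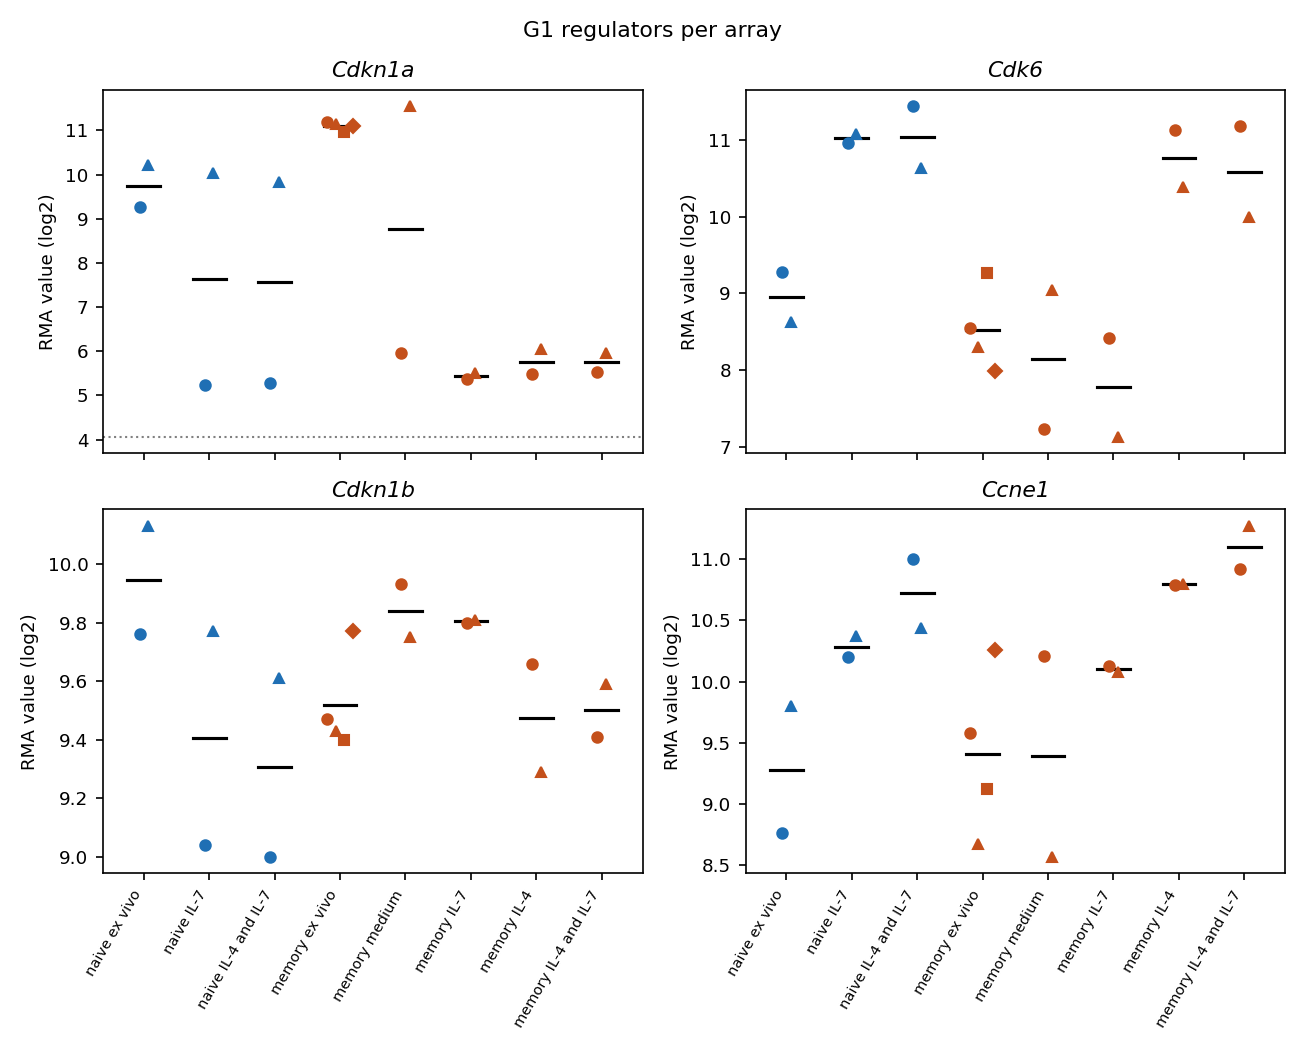
RMA values (log2) of 4 G1 regulators on each array by group, naive in blue and memory in orange. Marker shapes are array numbers (circle 1, triangle 2, square 3, diamond 4), bars are group means and the dotted line is the filter value. Cdkn1a is split between array 1 and array 2 in both naive cultures and in memory medium, and Cdk6 is above 9.9 in all cultures with IL-4 and in naive IL-7.

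The other inhibitor and the D-type cyclins moved less. Cdkn1b (p27) was 9.40 to 10.13 ex vivo, with 9.04 and 9.77 in naive IL-7 and 9.80 and 9.81 in memory IL-7, and passed in no comparison. Ccnd1 stayed between 4.30 and 5.17 and also passed in none. Ccnd2 was 11.62 to 12.44 in ex vivo memory cells and 10.76 and 10.88 in memory IL-7, a difference of -1.18 ± 0.29 (limma adjusted p of 0.0142). The probe set of largest variance gave -0.80, which did not pass (0.308). It was 10.56 in medium array 1, 11.84 on the array labelled medium 2, 11.24 to 11.30 in IL-4, 11.05 and 11.50 in both, and 11.20 to 11.86 on naive arrays.

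Cdk4 rose in both naive cultures, and Ccnd3 in the culture with both cytokines. Ccnd3 was 9.73 and 9.79 ex vivo and 10.81 and 10.37 in both cytokines, a difference of 0.83 ± 0.20 (limma adjusted p of 0.0142). Naive IL-7 arrays were at 10.45 and 10.21 and memory arrays at 9.81 to 10.61. Cdk4 was 10.05 and 9.72 in ex vivo naive cells and 10.88 and 11.14 in IL-7, higher by 1.13 ± 0.22 (limma adjusted p of 0.00641). With both cytokines it was 10.31 and 10.99, higher by 0.76 ± 0.22 (adjusted p of 0.03), and memory arrays lay at 10.16 to 11.05. With arrays centred on their medians, neither Ccnd3 nor Cdk4 passed in naive cells with both cytokines.

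Of the 2 E-type cyclins, which activate Cdk2 at S phase entry, Ccne1 was called higher than ex vivo in the memory cultures with IL-4. Ccne1 was 8.67 to 10.26 in ex vivo memory cells, 10.79 and 10.80 with IL-4, and 10.92 and 11.27 with both cytokines. Both IL-4 groups lay above all ex vivo arrays, by 1.38 ± 0.44 and 1.69 ± 0.44 (limma adjusted p of 0.0398 and 0.0143). The call in IL-4 alone was lost without the filter (0.0501), with the probe set of largest variance (0.058), and without ex vivo array 1, 2 or 3 or either IL-4 array, at 1.14 to 1.67. Other memory cultures were at 8.57 to 10.21, the lowest on the array labelled medium 2. Naive arrays were at 8.76 and 9.80 ex vivo and at 10.20 to 11.00 in culture, which did not pass with all arrays. Ccne2 was 3.92 to 6.90 on ex vivo arrays and 3.06 to 4.05 on cultured arrays. It was above the filter value on 5 arrays, all ex vivo. It therefore entered the test through the ex vivo arrays, and no size of difference is given against cultures in which no array reached the filter value.

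The licensing and fork genes showed 2 patterns. With IL-4, Mcm2 and Mcm5 were higher, and Pcna was lower in each cytokine culture than ex vivo. In memory cells with IL-7, the test called Mcm5 and Cdk6 of the 36 members, against 1.81% of all genes. Without IL-7 it called Cdk6 only, against 1.94% of all, and in naive cells Mcm2 only, against 1.26%. The shares called among the members were 5.56%, 2.78% and 2.78%, and their median differences were 0.24, 0.04 and 0.00, against 0.08, 0.06 and 0.00 over all genes.

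Mcm5, a subunit of the replicative helicase, was 9.97 and 9.93 in memory IL-7 and 11.13 and 10.82 with IL-4 added. It was 10.05 and 10.35 in medium and 10.84 and 10.73 with IL-4 alone. In naive cells it went from 10.32 and 10.75 to 11.66 and 11.14. All arrays with IL-4 lay above their matched arrays without it. The difference was 1.02 ± 0.22 with IL-7 (limma adjusted p of 0.0281). It was 0.58 ± 0.22 in memory cells without IL-7 (adjusted p of 0.245; 0.73 without the array labelled medium 2, adjusted p of 0.32) and 0.86 ± 0.22 in naive cells (adjusted p of 0.0864), neither of which passed. The call in memory cells was lost with arrays centred on their medians, at 0.99 and a limma adjusted p of 0.0549. The probe set of largest variance gave 1.16 (adjusted p of 0.0773), and the replicate number as a block gave 1.02 (0.0553). Neither passed, so the call was lost with these settings too. It was also lost without either array of memory IL-7 or of memory IL-4 and IL-7, at 0.87 to 1.18.

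Mcm2 gave a larger value in naive cells. It was 9.45 and 9.43 in naive IL-7 and 10.65 and 10.22 with IL-4 added, a difference of 0.99 ± 0.21 (1.99-fold, limma adjusted p of 0.0384). In memory cells it was 9.04 ± 0.06 (SD, n = 2) in IL-7 and 10.05 and 9.45 with both, and 9.11 and 8.89 in medium and 9.92 and 9.61 with IL-4. The memory differences were 0.70 ± 0.21 and 0.77 ± 0.21, with limma adjusted p of 0.125 and 0.0938. Without the array labelled medium 2 the latter was 0.66 ± 0.26 (limma adjusted p of 0.406). Ex vivo arrays were at 8.85 to 9.32. The naive and memory responses of Mcm2 differed by -0.29 ± 0.30 (adjusted p of 0.74), so no difference was detected with this spread. A second Mcm2 probe set gave 1.07 in naive cells (limma adjusted p of 0.0861) and 1.17 in memory cells with IL-7 (0.0388), so which cell type passed depended on the probe set. The naive call was lost without naive IL-4 and IL-7 array 1 or either naive IL-7 array, at 0.78 to 1.21.

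The remaining helicase subunits gave no call for IL-4. Mcm3 was 8.53 and 8.41 in memory IL-7, 8.84 and 8.91 with both, 8.77 and 8.89 in medium, and 8.67 and 8.59 in IL-4. In naive cells it was 9.20 and 9.77 ex vivo, 8.64 and 8.82 in IL-7 and 9.38 and 9.12 with both, and in ex vivo memory cells 8.89 to 9.66. It was lower than ex vivo in IL-7 in memory cells (-0.72 ± 0.20, limma adjusted p of 0.0241) and in naive cells (-0.75 ± 0.23, 0.0481). The naive call was lost without the filter (adjusted p of 0.0537), with robust moderation (0.0595) and with the probe set of largest variance (0.16). It was also lost without ex vivo array 2 or either IL-7 array, at -1.03 to -0.47.

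Mcm4 was 10.43 to 11.60 on all arrays, with 10.43 and 10.77 in naive IL-7 and 11.14 and 11.11 with IL-4 added. It passed in no comparison with all arrays. Mcm6 was 9.26 to 9.69 in ex vivo memory cells and 9.66 to 10.14 in cultured ones, with 9.50 and 10.36 in ex vivo naive cells and 10.13 to 10.64 in naive cultures. It also passed in none. Mcm7 was 11.18 to 11.54 in ex vivo memory cells and 11.92 and 11.95 with both cytokines, higher by 0.61 ± 0.21 (limma adjusted p of 0.0473). This call was lost with arrays centred on their medians, without the filter, with the probe set of largest variance and with the replicate block. It was also lost without ex vivo memory array 1, 2 or 3. Leaving out 1 array at a time gave 0.56 to 0.68. Naive Mcm7 was 11.34 and 11.76 ex vivo and 11.96 to 12.44 in culture, and other memory cultures were at 11.16 to 11.90. Both arrays with IL-4 lay above both without it for 4 of the 6 subunits in memory cells with IL-7, 2 without IL-7 and 5 in naive cells, against 34.3%, 20.6% and 19.3% of all genes.

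**Figure D3:**
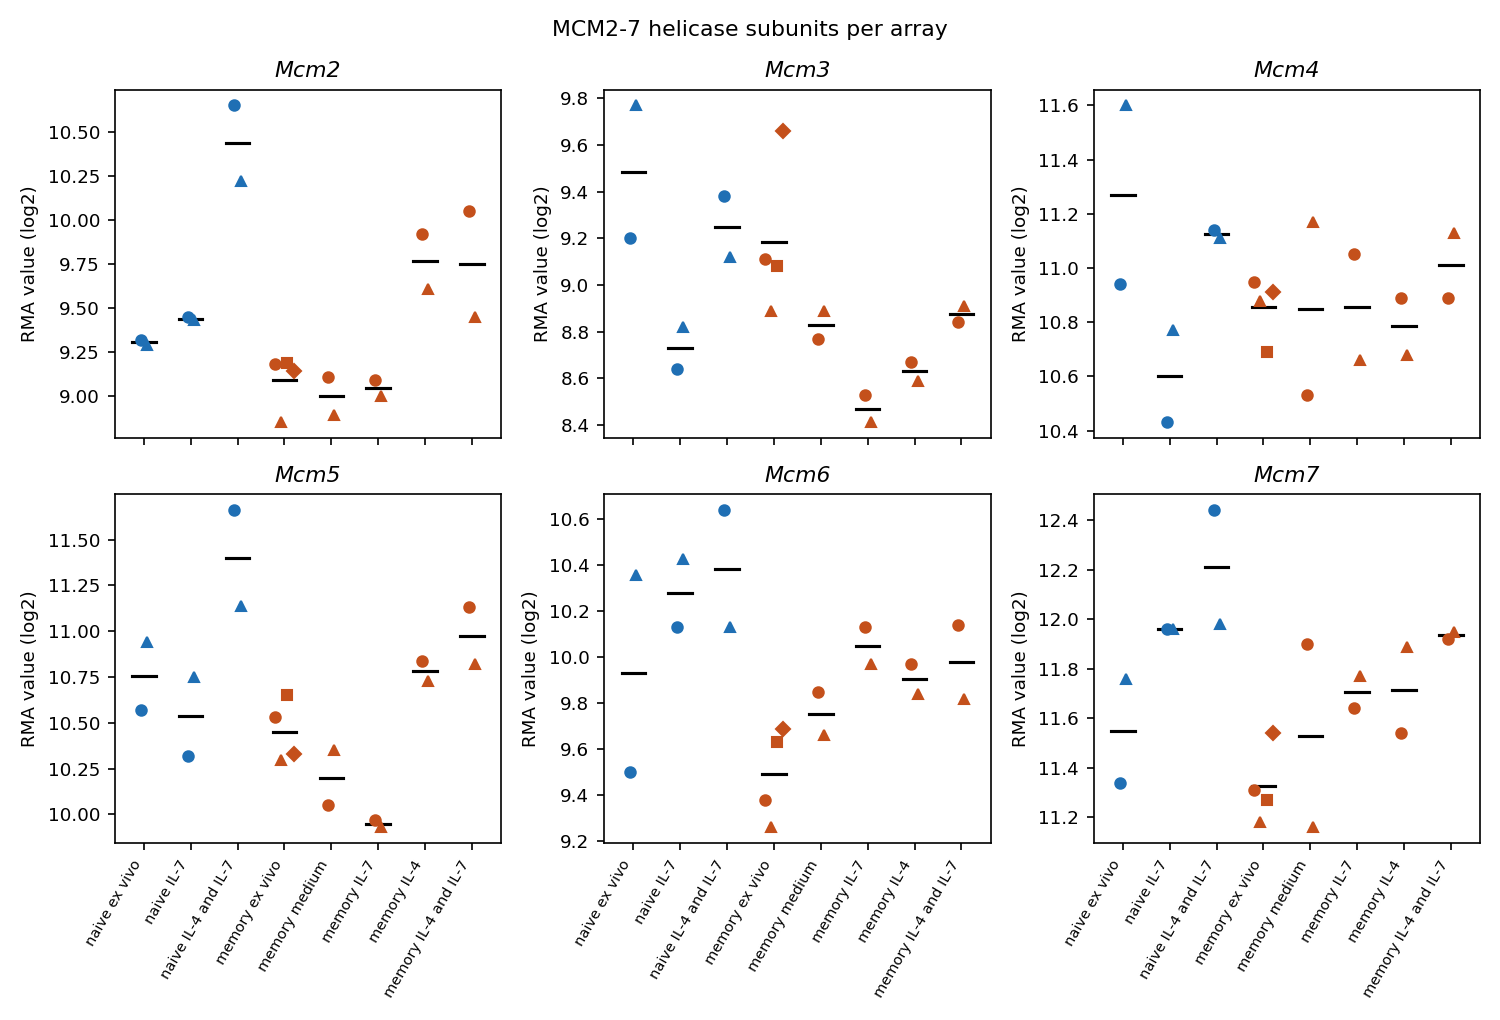
RMA values (log2) of the 6 MCM helicase subunits on each array by group, naive in blue and memory in orange, with bars for group means and marker shapes for array numbers. Each panel has its own axis. Mcm2 and Mcm5 are highest in naive cells with both cytokines and above the matched arrays in all groups with IL-4.

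More members were called between culture and ex vivo than for either cytokine. Against ex vivo, 11 of 36 members were lower and 0 higher in memory cells in IL-7, with 19.9% of all genes called. The shares of all genes higher and lower there were 11.1% and 8.85%. In IL-4, 4 were higher and 9 lower, with 20.7% of all genes called, 12.2% higher and 8.50% lower. With both, 5 were higher and 8 lower, with 22.8% called, 13.4% higher and 9.38% lower. In naive cells 8 were called in IL-7, 6 of them lower, with 12.8% of all genes called and 5.80% lower. With both cytokines 5 were higher and 5 lower, with 14.8% called, 8.90% higher and 5.85% lower. Ccne2 and Cdc6, which entered the test through their ex vivo arrays, are among the lower members each time. These comparisons share their ex vivo arrays. Centring each array on its median lowered all differences by 0.13 to 0.20, and the splits of higher and lower members became 0 and 15 in memory IL-7, 2 and 11 in memory IL-4, 2 and 9 in memory with both, 2 and 8 in naive IL-7, and 2 and 7 in naive with both.

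Memory cells in medium alone gave 0 calls against ex vivo, among the members and over all genes, by limma. At an unadjusted p under 0.05 there were 7 members, against 9.91% of all genes. Without the array labelled medium 2, 8 members were called, against 16.4% of all genes. The members called were then Ccnd2, Cdkn1a, Cdc6 (again above the filter value ex vivo only), Cdt1, Pcna, Rrm1 and Aurka, all lower, and Plk1, a mitotic kinase, higher by 0.59 ± 0.18 (limma adjusted p of 0.0365).

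Pcna, the sliding clamp of the replication fork, was lower in every cytokine culture. It was 12.52 and 12.52 in ex vivo naive cells and 12.20 to 12.69 in ex vivo memory cells. Naive cultures were at 11.35 and 11.56 in IL-7 and 10.95 and 11.88 with both cytokines. Memory cultures were at 10.91 and 11.22 in IL-7, 11.35 and 11.08 in IL-4, 10.71 and 10.78 with both, and 11.01 and 12.06 in medium. All cultured arrays lay below all ex vivo arrays, with the array labelled medium 2 the nearest. The differences ran from -1.07 ± 0.32 in naive IL-7 to -1.62 ± 0.28 in memory cells with both (limma adjusted p of 0.0419 and 0.00146). The naive calls rest on groups of 2 arrays. Leaving out 1 array at a time gave -1.17 to -0.97 in naive IL-7 and -1.57 to -0.65 in naive with both.

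The licensing factors Cdc6 and Cdt1 load the helicase on origins. Cdc6 was 4.31 to 5.63 on ex vivo arrays and 2.97 to 4.23 on cultured arrays, and 7 arrays were above the filter value, the 6 ex vivo arrays and the array labelled medium 2. It too entered the test through the ex vivo arrays, and no size of difference is given. Cdt1 was 11.78 to 12.19 in ex vivo memory cells, 11.08 and 11.05 in IL-7, and 11.57 to 11.84 in the IL-4 groups. It passed in IL-7 alone, at -0.96 ± 0.18 (limma adjusted p of 0.00568). Naive Cdt1 was 11.90 and 12.15 ex vivo, 11.53 and 11.52 in IL-7 and 12.31 and 11.82 with both.

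Gins1, a subunit of the complex that activates the helicase, went the other way. It was 4.50 to 4.93 ex vivo in both cell types and 5.15 to 5.61 in the cultures with IL-4. Naive IL-7 arrays were at 5.25 and 5.35, memory IL-7 at 4.73 and 5.31, and medium at 5.11 and 4.85. The differences were 0.59 ± 0.19 in memory IL-4, 0.59 ± 0.19 in memory with both and 0.72 ± 0.22 in naive with both (limma adjusted p of 0.0382, 0.036 and 0.039), and none of them passed with arrays centred on their medians.

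Of the nucleotide synthesis genes, the 2 ribonucleotide reductase subunits fell in memory culture. Rrm1 was 9.57 to 9.70 in ex vivo memory cells and 8.75 to 9.17 in the cytokine cultures, lower by 0.83 in IL-7, with an SE of 0.16 (limma adjusted p of 0.00647). In medium it was 8.85, and 9.48 on the array labelled medium 2. Rrm2 was 7.02 to 8.91 ex vivo, 6.75 and 6.54 in IL-7, 5.90 and 5.81 in IL-4, and 6.26 and 6.53 with both. In IL-4 it was 4-fold lower, with an SE of 0.40 on the log2 scale (limma adjusted p of 0.00403), and with both lower by a log2 difference of -1.46 ± 0.40 (0.0183). Naive values were 7.82 and 8.34 ex vivo and 6.91 to 7.17 in culture, which did not pass. Tk1, a thymidine kinase, was 3.86 to 5.62 and passed in no comparison, and Tyms was 2.98 to 3.61 on all arrays.

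**Figure D4:**
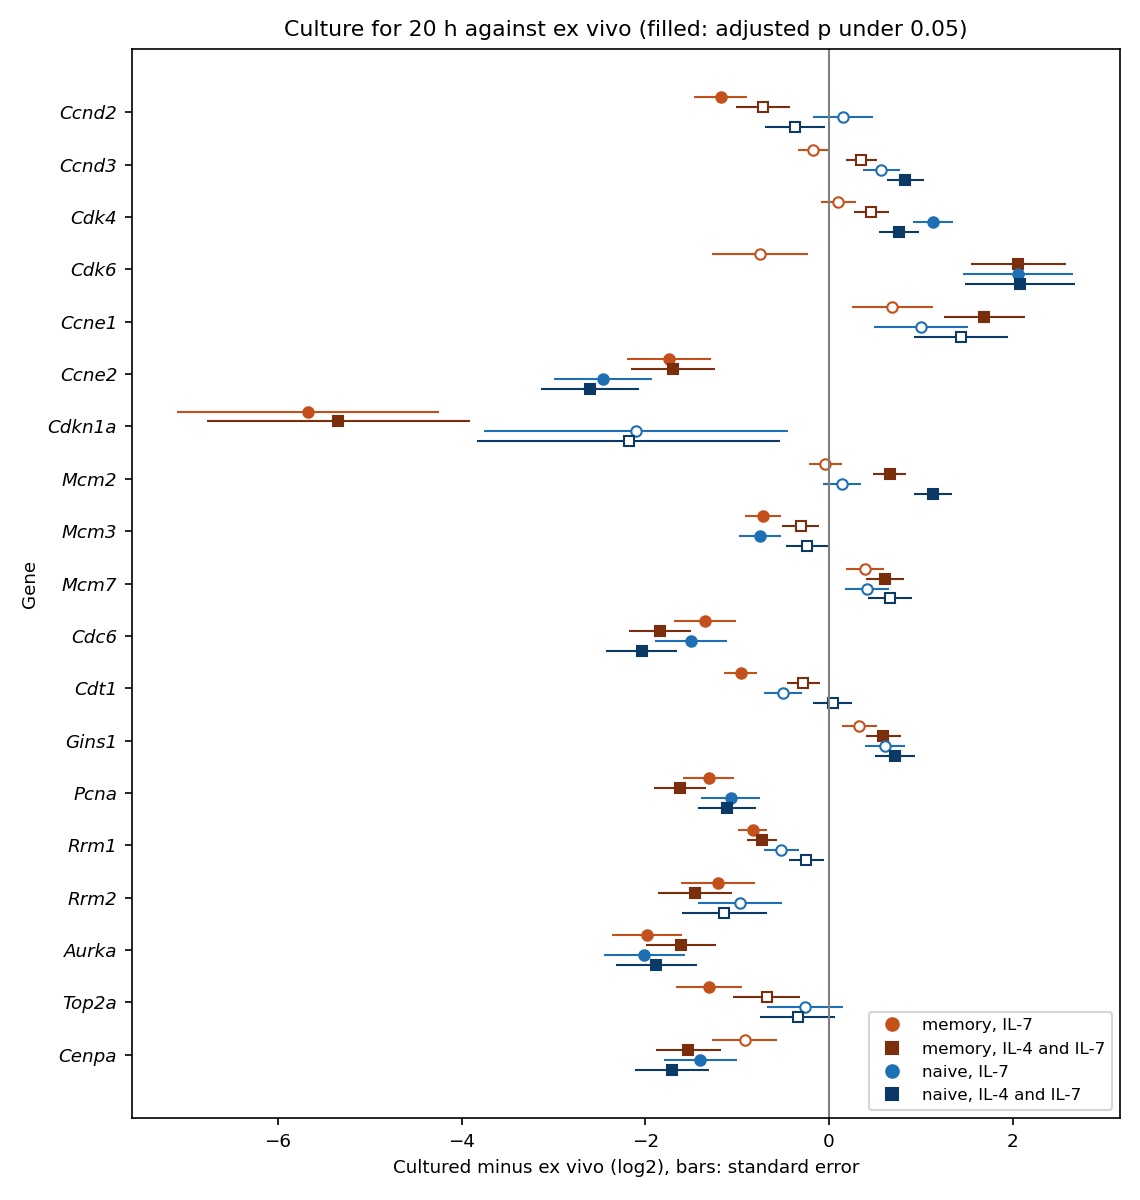
Difference between cultured and ex vivo cells (log2, x axis) with its standard error for the 19 members called in any of the 5 cytokine comparisons. Memory is in orange and brown, naive in light and dark blue, with circles for IL-7 and squares for both cytokines. Memory in IL-4 alone is left out for clarity, and filled markers passed at an adjusted p under 0.05. Ccne2 and Cdc6 were under the filter value in these cultures, so their sizes are not read. Most called members lie below 0, and Cdk6, Mcm2 and Gins1 lie above it in the cultures with both cytokines.

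Of 10 genes of G2 and mitosis tested, Aurka, the centrosomal Aurora kinase, was called in each of the 5 cytokine comparisons and no other in any, which is 10.0% each time against 12.8% to 22.8% of all genes. Aurka was 7.69 and 8.09 in ex vivo naive cells and 7.06 to 8.58 in ex vivo memory cells, 5.65 to 6.11 in naive cultures and 5.71 to 6.20 in memory cytokine cultures. Medium array 1 had 5.85 and the array labelled medium 2 had 7.26. The ex vivo and cytokine arrays did not overlap, with differences from -1.61 ± 0.38 in both IL-4 memory groups to -2.01 ± 0.44 in naive IL-7 (limma adjusted p of 0.00931, 0.00814 and 0.011). Ccnb2, a B-type cyclin, was 4.51 to 6.22 on ex vivo arrays and 5.78 to 6.19 on cultured arrays other than the array labelled medium 2 (4.49). It did not pass with all arrays. Ccna2, Cdk1, Foxm1, Plk1, Bub1b, Cdc20, Ube2c and Birc5 passed in none of the comparisons with all arrays. Ube2c was above the filter value on 5 arrays only, the 4 ex vivo memory arrays and the array labelled medium 2. No naive or cytokine culture array was above it. The lack of a Ube2c call with IL-4, or in naive cells, therefore cannot show whether it changed.

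Of the mitotic structure genes, Cenpa was called lower in culture, and Top2a only in memory IL-7 and memory IL-4. Cenpa, the centromeric histone, was 9.74 to 10.86 on ex vivo arrays and 8.32 to 9.42 in all cytokine cultures. It was 9.50 and 10.79 in medium, the latter on the array labelled medium 2. The differences ran from -1.40 ± 0.40 in naive IL-7 to -1.71 ± 0.40 in naive with both (limma adjusted p of 0.0369 and 0.0136). Leaving out 1 array at a time gave -1.56 to -1.23 and -2.09 to -1.32 for these. Memory IL-7, at -0.92 ± 0.35, did not pass with all arrays. Top2a, topoisomerase 2 of replicating chromosomes, was 5.97, 4.99, 5.04 and 6.05 on ex vivo memory arrays 1 to 4. It was 4.25 and 4.16 in IL-7, 4.71 and 4.13 in IL-4, 5.06 and 4.61 with both, and 4.38 and 5.39 in medium. The difference was -1.31 ± 0.36 in IL-7 (limma adjusted p of 0.0219) and -1.09 ± 0.36 in IL-4 (0.0444). Both calls were lost with the replicate block, and that in IL-4 also without the filter. With both cytokines Top2a did not pass in memory cells. Naive Top2a was 4.93 and 5.45 ex vivo and 4.47 to 5.24 in culture, which did not pass. Kif11 was above the filter value on 5 arrays, all ex vivo, and passed in no comparison with all arrays. Its lack of a call between cultures cannot show whether it changed.

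Mki67, the standard marker of cycling cells, was near or under the filter value on all but 2 arrays. It was 6.45 on ex vivo memory array 1 and 4.85 on array 4, and 3.91 and 4.01 on arrays 2 and 3. On naive ex vivo arrays it was 3.74 and 3.31. On the 12 cultured arrays it was 3.36 to 4.04. No comparison called it. Mki67 entered the test through ex vivo memory arrays 1 and 4 only, and every array of the IL-4 comparisons lay under the filter value. No size of difference is therefore given. The lack of a call cannot show whether Mki67 changed with IL-4.

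Ex vivo memory array 1 was also the highest of the 18 for Ube2c, a ubiquitin enzyme of mitotic exit, and for Ccna2, Tk1, Birc5, Ccnb2 and Rrm2. The other tested mitotic members, Cdk1, Foxm1, Plk1, Aurka, Bub1b, Cdc20, Top2a, Cenpa and Kif11, were not highest on it. Aurka was 7.79 there and 8.58 on ex vivo memory array 4. The share of all genes highest on this array was not counted. Ube2c was 6.69 there, 4.29 to 4.53 on the other ex vivo memory arrays and 3.27 to 4.22 elsewhere. Ccna2 was 5.63 against 4.07 to 4.96 on the rest, and Birc5, the survivin gene, 5.45 against 4.05 to 4.91. The same array had the highest Alas2, at 11.50 against 7.98 to 8.41 on the other ex vivo memory arrays, and a red cell precursor list mean of 8.58 against 7.41 to 7.45, over the 3 of its 6 genes with a probe set. These are Alas2, Tfrc, which T cells also express, and Hba-a1, which was 3.39 there and 3.05 to 3.71 on all arrays. Jchain was 7.65 on it, 7.23 on array 2 and 3.90 and 4.72 on arrays 3 and 4. Over these 4 arrays the rest of its list spanned 5.29 to 5.57 (Sdc1), 5.64 to 5.94 (Mzb1) and 5.11 to 5.26 (Prdm1). Irf4 spanned 9.09 to 10.04 and Xbp1 11.11 to 11.72. The part of any other cell type in the mitotic values was not tested. In bulk RNA, fewer cells of a type and less RNA per cell cannot be told apart.

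**Figure D5:**
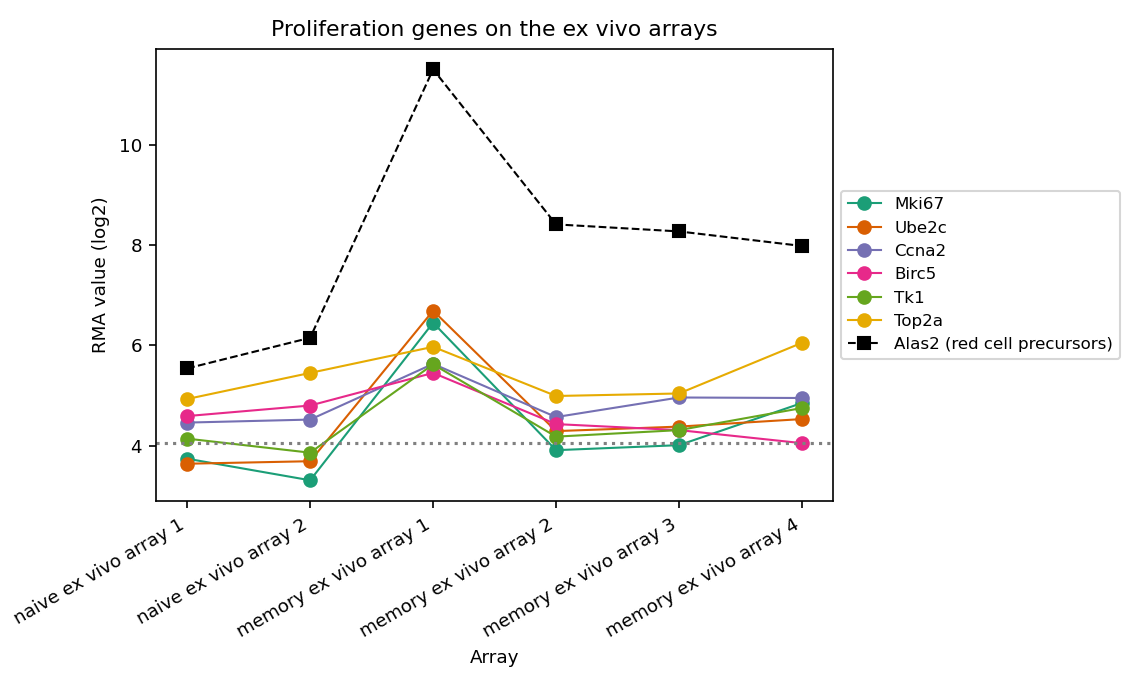
RMA values (log2, y axis) of 6 proliferation genes and of Alas2 on the 6 ex vivo arrays (x axis), with the filter value as a dotted line. Mki67, Ube2c, Ccna2, Birc5, Tk1 and Alas2 are all highest on memory array 1, and Top2a is highest on memory array 4. The lines only join the values of a gene.

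Few members were called between memory and naive cells. Ex vivo, 0 of 36 members were called by limma, against 1.93% of all genes, and 7 had an unadjusted p under 0.05, against 17.2% of all. In IL-7, Cdk6 was the single call with all arrays, against 2.70% of all genes. With both cytokines there were 0 calls, against 3.81%, and 2 members had an unadjusted p under 0.05, against 22.9% of all. Adding IL-7 to memory cells called 0 members and 0% of all genes by limma, without or with IL-4, and 1 and 0 members had an unadjusted p under 0.05, against 5.84% and 2.08% of all. Without the array labelled medium 2 the first of these also gave 0 members. The contrasts of contrasts (IL-4 response in memory less naive cells, IL-4 response with less without IL-7, IL-7 culture response in memory less naive cells) called 0 members each, against 0.0726%, 0% and 0.0508% of all genes, with 2, 0 and 5 members at an unadjusted p under 0.05, against 10.1%, 4.72% and 10.4% of all. Limma with robust moderation and an intensity trend also called 0 members in each of these comparisons with 0 calls.

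With IL-4, 1.81% of all genes were called in memory cells with IL-7, 1.94% without it and 1.26% in naive cells, against which the other genes of the same pathways are given. Of 22 further G1 and S entry genes tested, 0 were called in memory cells with IL-7 and 1 without it. That was Myc, the growth factor-induced transcription factor, higher by 1.80 ± 0.37 (limma adjusted p of 0.023), or by 1.84 ± 0.46 without the array labelled medium 2, which did not pass (0.0697). Myc was 7.50 and 7.57 in medium, 9.44 and 9.22 in IL-4, 9.05 and 7.69 in memory IL-7 and 9.65 and 9.36 with both. Naive IL-7 cells had 10.24 and 10.24, and memory cells were lower there by 1.87, with an SE of 0.37 (adjusted p of 0.0138). The first memory IL-7 array lay near the IL-4 arrays and the second near medium.

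Of 39 replication and nucleotide supply genes, Pole2, a DNA polymerase epsilon subunit, rose with IL-4 in memory cells by 1.13 ± 0.24 with IL-7 and 1.42 ± 0.24 without it (limma adjusted p of 0.0266 and 0.00544), the latter 1.60 ± 0.28 without the array labelled medium 2 (0.00907). It was 9.24 and 8.63 in IL-7, 10.25 and 9.88 with both, 8.58 and 8.95 in medium and 10.12 and 10.25 in IL-4, with no overlap. Dbf4, the activator of the Cdc7 origin kinase, was lower by 1.20 ± 0.28 without IL-7 (0.0418). Its medium values were 9.33 and, on the array labelled medium 2, 10.55, against 8.81 and 8.67 in IL-4, and without that array the difference was -0.60 ± 0.21 and did not pass (limma adjusted p of 0.277). Of 14 quiescence factors, Tob1, an antiproliferative protein of resting T cells, was lower with IL-4 by 1.17 ± 0.24 with IL-7 and 1.68 ± 0.24 without it (0.0208 and 0.00174), the latter -1.52 ± 0.29 without the array labelled medium 2 (0.0128). Of 36 further G2 and mitosis genes, Pttg1, securin, was lower without IL-7 by 0.91 ± 0.21 (0.041), or -0.78 ± 0.26 without that array, which did not pass (0.24). None of the lists gave a call for IL-4 in naive cells or for IL-7 in memory cells.

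Between memory and naive cells, Cdk2 was lower in memory cells ex vivo by 0.89 ± 0.21 (limma adjusted p of 0.0409) and with both cytokines by 1.20 ± 0.24 (0.0141). In IL-7, Pole2 and Uhrf1, which maintains DNA methylation at the fork, were lower in memory cells by 1.20 ± 0.24 and 1.43 ± 0.34 (0.0129 and 0.0388), and Tob1 was higher by 1.07 ± 0.24 (0.0275). With both cytokines Orc4, Pola1 and Ect2 were lower and Pttg1 higher in memory cells, by 0.93 to 1.07.

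Culture called genes from all 5 lists. Klf4, a quiescence factor of CD8 T cells, was 12.01 to 13.15 on ex vivo arrays and 5.82 to 8.68 in culture, except 12.58 on the array labelled medium 2. Its differences ran from -4.54 ± 0.72 in memory IL-7 to -5.96 ± 0.83 in naive IL-7 (limma adjusted p of 0.00435 and 0.00144). Dbf4, Orc6, Prc1, Tob1, Tsc22d3, Plk2 and Plk3 were lower, and Rrm2b, a p53-regulated reductase subunit, higher, in each of the 5 cytokine comparisons. Of the 39 replication genes, 4, 6 and 9 were higher and 5 lower each time in memory IL-7, IL-4 and both. These are 23.1%, 28.2% and 35.9% of the list, against 19.9%, 20.7% and 22.8% of all genes. Of the 36 G2 and mitosis genes, 4, 1 and 4 were higher and 1, 2 and 3 lower, which is 13.9%, 8.33% and 19.4% against the same shares.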

How the data were processed

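Affymetrix mouse arrays were hybridised with amplified, biotin-labelled RNA of sorted CD8 T cells, per the labels' protocols. The deposited values are log2 intensities summarised by probe set, and RMA and limma are named without versions in the submitters' processing notes. RMA puts arrays on a common distribution, so differences are relative to the whole array. The array's annotation gave 34958 of 45101 probe sets exactly 1 gene symbol; 34754 had an Entrez ID in the RefSeq table of GRCm38.p6, which changed 0 symbols. The brightest probe set stood for a gene.

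Genes that exceeded the 40th percentile of the whole table on 2 or more arrays were tested with limma 3.58.1 in R 4.3.3: a linear model of 8 group means over 18 arrays, eBayes moderation (residual df 10, prior df 4.13), two-sided tests, Benjamini-Hochberg over 13770 genes, called at an adjusted p under 0.05. The test was run on simulated data first. The percentile filter is not a measured background, and the number of arrays limits precision. Errors of differences are standard errors. Where a left-out array leaves a group with a single array, that array is assumed to vary like the other groups.

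Alternatives were no filter, the probe set of largest variance, a replicate block, robust moderation with a trend, array centring and leaving out each array. The named genes were all 41 members and, from each further pathway list, at most 4 called genes of largest difference per comparison. The members and lists were chosen with earlier results of these data known, so their directions are not independent evidence. Marker lists covered CD8 and CD4 T cells, plasmablasts, platelets, red cell precursors, NK, B and myeloid cells.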

Additional observations from a re-analysis of the deposited data

Results flagged for a closer look

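In the group of 4 ex vivo memory arrays, 36 members were checked for an array whose gap to its nearest neighbour took up most of the group's range (Dixon's test). 3 members had such an array, and chance gives about 1 in 20. Ube2c was 6.69 on array 1, against 4.29 to 4.53 on the others. Mcm2 was 8.85 on array 2, against 9.14 to 9.19, a small gap. Kif11, a spindle motor, was 3.54 on array 4, against 4.08 to 4.14, all near the filter value.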

How the results depend on the processing

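No called value of a member changed sign under any alternative run. Outside the fits that leave out an array, 259 called values stayed past the threshold and 41 did not. In memory cells with IL-7, the count for IL-4 (2) was 1 with array centring. That for IL-4 without IL-7 (1) was 2, and that for IL-4 in naive cells (1) was 0, with the probe set of largest variance. The cause was not tested.

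With the replicate number as a block, the counts for IL-4 in memory cells were 1 where IL-7 was present and 2 where it was not. They were 1 for memory against naive cells ex vivo, 1 with both cytokines (0 each without the block) and 7 for memory IL-7 against ex vivo (11 without it), where Ccnd2, Ccne2, Mcm3, Cdc6, Rrm2 and Top2a were no longer called. The deviations of same-numbered arrays correlated at -0.13 to 0.51 over 21 pairs, 12 of them over 0.1. By best match, 14 of 14 arrays went with an array of their own number. The deviations of the 2 arrays of a group mirror each other, so each match is counted for both arrays. Among memory cultures, Alas2 was 10.09, 9.89, 10.03 and 9.20 on array 1 of IL-7, IL-4, both and medium. On array 2 it was 7.05, 6.84, 7.15 and 8.66. Jchain was 4.69, 3.93, 3.86 and 3.45 on array 1 and 7.94, 7.46, 8.01 and 7.17 on array 2. On the naive culture arrays Alas2 spanned 4.15 to 5.38 and Jchain 3.54 to 4.18. These are hints from the data and not the design. The labels do not say whether arrays of a number share a sorted population, which was not tested.

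Leaving out each array in turn, counts ran from 0 to 2, 0 to 4 and 0 to 2 for IL-4 (memory with IL-7, memory without, naive). For IL-7 in memory cells they were 0 to 8 without IL-4 (8 without medium array 1, which leaves the array labelled medium 2) and 0 with it. For memory against naive cells they were 0 to 1, 0 to 2 and 0 to 1. Against ex vivo they were 0 to 8 in medium, 0 to 13, 1 to 15 and 3 to 15 in memory IL-7, IL-4 and both, and 0 to 11 and 2 to 14 in naive cells. The contrasts of contrasts stayed at 0.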

Other observations

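The split of Cdkn1a between the naive arrays was shared by other genes, chosen here after their values were seen. 40 genes differed by more than 2 (log2) in the same direction between array 2 and array 1 of both naive cultures, all 40 higher on array 2, and Cdkn1a was the only member among them. Irf4, a transcription factor induced by T cell receptor signals, differed by 5.73 in IL-7 and 5.43 with both cytokines, against 9.32 and 8.47 on the ex vivo naive arrays. Nr4a1, an early response gene to the receptor, differed by 2.74 and 3.50. It was 9.62 and 10.20 on array 2 of these cultures. On ex vivo arrays it was higher, at 12.35 and 11.84 in naive cells and 12.54 to 12.86 in memory cells. Cd83 differed by 3.96 and 5.29, against 3.44 and 3.87 on the ex vivo naive arrays. Il2ra, the IL-2 receptor alpha chain, differed by 2.28 and 3.53, against 3.42 and 3.67 there. Mki67 and Top2a were not among the 40 genes. Mki67 was 3.64 and 3.49 in naive IL-7 and 3.66 and 3.44 with both. These values lie under the filter value, so they cannot show whether Mki67 was split. Top2a was 4.87 and 4.99, and 4.47 and 5.24, higher on array 2 by 0.12 and 0.77.

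Of the other cell types' lists, summarised as the mean of the measured genes on each array, B cell markers were 4.49 to 4.66 on naive arrays and 4.75 to 5.53 on memory arrays. Myeloid markers were 4.15 to 4.59, CD4 T cell markers 4.73 to 5.31, NK cell markers 3.21 to 4.69, platelet markers 4.94 to 5.57 and plasmablast markers 5.71 to 7.54. Their part in the members' values was not tested.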
